A study of Homo sapiens with 6 samples.

Results

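The miR-17-92 and miR-106b-25 clusters are related groups of microRNA (miRNA) hairpins, each cut from 1 primary transcript. They are described here by their 9 guide strands, the strand of each hairpin that is usually retained as the mature miRNA: miR-17-5p, miR-18a-5p, miR-19a-3p, miR-20a-5p, miR-19b-3p and miR-92a-3p of miR-17-92, and miR-106b-5p, miR-93-5p and miR-25-3p of miR-106b-25. The members were chosen by name, and all 9 were among the 832 miRNAs of the table. Small RNA was sequenced from extracellular vesicles (EVs), the membrane particles that cells release, of MDA-MB-231, a human triple-negative breast cancer cell line labelled as epithelial. There were 3 libraries of EVs from cells labelled WT (231 EV) and 3 of EVs from cells with ACO1 knockdown (231 ACO1KD EV). ACO1 is an iron-regulated RNA-binding protein, and the comparison asked how its knockdown changed the miRNAs carried by the EVs. In both groups the EVs were pelleted by ultracentrifugation from medium of confluent cells kept in EV-free conditions. The construct used for the knockdown, and whether the replicates came from separate cultures, are not given in the sources used here, so that p-values measure the spread between these libraries, which may be technical. ACO1 mRNA is not measured in small RNA libraries, so the knockdown was not checked.

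Guide strands pair with messenger RNAs mainly through the seed, bases 2 to 8 from the 5′ end, and lower the output of those messengers. miR-17-92 is a MYC-induced oncogenic cluster whose targets include the death factor BIM and the cell cycle regulators E2F1 and CDKN1A, and miR-106b-25 shares many of these targets. The strands of a cluster start in equal number on 1 transcript, but processing, stability and packing into EVs can set each strand at a different level.

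The mature sequences of all 9 members were found in RefSeq (GRCh38.p14) and are shown because their seeds define the families compared below. They are written 5′ to 3′ with the seed in capitals. 4 strands share the seed AAAGUGC, miR-18a-5p alone has AAGGUGC, 2 strands have GUGCAAA and 2 have AUUGCAC.

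hsa-miR-17-5p: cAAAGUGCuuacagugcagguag
hsa-miR-20a-5p: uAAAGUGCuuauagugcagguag
hsa-miR-106b-5p: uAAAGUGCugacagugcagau
hsa-miR-93-5p: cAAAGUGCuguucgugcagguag
hsa-miR-18a-5p: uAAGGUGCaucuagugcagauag
hsa-miR-19a-3p: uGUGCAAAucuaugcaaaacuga
hsa-miR-19b-3p: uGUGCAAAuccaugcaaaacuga
hsa-miR-92a-3p: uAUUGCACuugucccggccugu
hsa-miR-25-3p: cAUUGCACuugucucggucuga

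With positions counted from 1 at the 5′ end, miR-17-5p differed from miR-20a-5p at C1U and C12U, and miR-19a-3p from miR-19b-3p at U11C alone. miR-92a-3p differed from miR-25-3p at U1C, C14U, C18U and U22A. Reads of such near-identical strands could have been divided between them when the authors counted, so the split within a pair is uncertain. The sequences of miR-19b-3p and miR-92a-3p are each encoded by a further hairpin, MIR19B2 and MIR92A2 of the paralogous miR-106a-363 cluster, and reads of the 2 copies cannot be told apart. The guides that only the paralogous cluster encodes, miR-106a-5p, miR-18b-5p, miR-20b-5p and miR-363-3p, had 5, 2, 17 and 1 reads over the 6 libraries. Their sum of 25 reads stood beside 17355 reads of the 6 guides of miR-17-92.

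The hairpins of miR-17-92 lie on the plus strand of human chromosome 13 at chr13:91350605-91351391 (GRCh38, GENCODE release 29), a stretch of 787 bp within the long noncoding RNA gene MIR17HG (ENSG00000215417.12). They lie in intron 3 of the transcript MIR17HG-201 and within exon 3 of MIR17HG-202 and exon 2 of MIR17HG-203. The hairpins of miR-106b-25 lie on the minus strand at chr7:100093560-100094074, a stretch of 515 bp in intron 13 of MCM7-201, the principal transcript of MCM7 (ENSG00000166508.17). MCM7 encodes a subunit of the replicative DNA helicase.

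Total counts were 224948 to 230562 reads in 231 EV and 175924, 67873 and 157322 reads in 231 ACO1KD EV replicates 1, 2 and 3. Levels are given as TPM, the count divided by the library total and brought to 1 common sum, with no length term. Each read stands for a whole mature strand of 21 to 23 bases, so that length does not separate the members in TPM. How evenly different sequences enter a library was not measured, so differences between members are differences in reads. For comparisons, counts were scaled by TMM, which sets aside the most abundant and most changed miRNAs, and tested with edgeR over the 517 miRNAs that had reads in 3 or more libraries. miR-21-5p, the highest miRNA, took 28.5%, 31.2% and 30.2% of the reads of 231 EV but 12.2%, 11.7% and 18.4% of those of 231 ACO1KD EV. The median log2 fold change of all tested miRNAs was -0.03 with TMM, which places the typical change near 0 by design, and 0.32 with library totals. Fold changes per total reads thus stood higher than those with TMM. Which of the scales is closer to the amounts in the EVs was not measured. 231 ACO1KD EV replicate 3 stood apart from its group. Its counts differed from those of replicates 1 and 2 by a chi-square per degree of freedom of 22.6 and 17.3, against 3.64 to 7.21 for the other pairs of libraries of 1 group.

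The 2 clusters were both present in every library, and the summed counts of their members spanned a 191-fold range. miR-93-5p and miR-25-3p, the strands of the MCM7 intron that repress cell cycle inhibitors and death factors, stood highest. In 231 EV miR-93-5p was at 15475, 14018 and 15182 TPM, and in 231 ACO1KD EV at 20304, 22203 and 14054 TPM. miR-25-3p was at 15746, 13601 and 13435 TPM in 231 EV and at 18951, 19374 and 17359 TPM in 231 ACO1KD EV. By mean TPM they were the miRNAs ranked 13 and 14 of the table in 231 EV and 10 and 11 in 231 ACO1KD EV, and neither stood above the other beyond its spread, since miR-93-5p was the higher in 4 of 6 libraries.

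miR-92a-3p, the most abundant strand of miR-17-92, followed with 6624, 6519 and 8004 TPM in 231 EV and 5980, 5923 and 10882 TPM in 231 ACO1KD EV. Its 231 ACO1KD EV replicate 3 was above all other libraries, and its replicates 1 and 2 were below all of 231 EV. miR-20a-5p, a seed relative of miR-17-5p, was at 3503, 3561 and 3231 TPM in 231 EV and at 4786, 3624 and 4678 TPM in 231 ACO1KD EV, so that each of its 231 ACO1KD EV libraries exceeded each 231 EV library on this scale.

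miR-19b-3p, which shares its seed with miR-19a-3p, stood in 231 EV at 2930 ± 340 TPM (SD, n = 3), and with the knockdown at 3647 ± 640 TPM (SD, n = 3). miR-19a-3p had 1085 ± 197 TPM (SD, n = 3) and 1374 ± 537 TPM (SD, n = 3). miR-19b-3p lay above miR-19a-3p in 6 of 6 libraries, and the ranges of each strand overlapped between the groups.

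The lowest members were miR-17-5p, miR-18a-5p and miR-106b-5p. miR-17-5p, the strand after which the cluster is named, had 41, 41 and 42 reads in 231 EV, or 182 ± 4.42 TPM (SD, n = 3). In 231 ACO1KD EV it had 51, 26 and 41 reads, or 311 ± 63.9 TPM (SD, n = 3), and all of these TPM values were above those of 231 EV. miR-18a-5p had 143 ± 30.9 and 216 ± 46.2 TPM (SD, n = 3 each), and miR-106b-5p 82.0 ± 34.2 and 88.0 ± 13.9 TPM (SD, n = 3 each), with overlapping groups. miR-106b-5p rested on 6 to 28 reads a library.

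The order of mean levels was the same in both groups: miR-93-5p, miR-25-3p, miR-92a-3p, miR-20a-5p, miR-19b-3p, miR-19a-3p, miR-17-5p, miR-18a-5p and miR-106b-5p. Beside the pair at the top, the neighbours that overlapped in TPM were miR-20a-5p with miR-19b-3p and miR-17-5p with miR-18a-5p in 231 ACO1KD EV, and miR-18a-5p with miR-106b-5p in 231 EV. Within single libraries miR-20a-5p nevertheless exceeded miR-19b-3p in 6 of 6, and miR-17-5p exceeded miR-18a-5p in 5 of 6.

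Strands cut from 1 transcript were thus far from equal in reads. In miR-17-92, miR-92a-3p made up 34.0% to 53.9% of the reads of the 6 guides, miR-20a-5p 21.6% to 27.2% and miR-19b-3p 15.4% to 24.8%. miR-17-5p and miR-18a-5p each stayed at 2.60% or less in all 6 libraries. miR-20a-5p, which has the seed of miR-17-5p and differs from it at C1U and C12U, outnumbered it by 19.2, 20.0 and 17.3 to 1 in 231 EV and by 16.5, 9.46 and 17.95 to 1 in 231 ACO1KD EV. In miR-106b-25, miR-93-5p made up 44.6% to 53.3% of the reads of the 3 guides and miR-25-3p 46.5% to 55.1%, while miR-106b-5p made up 0.188% to 0.438%.

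The low level of miR-106b-5p was accompanied by reads of the opposite strand. In MIR106B the strand named as guide held 7.98% of the hairpin's reads (95% Wilson interval 6.55% to 9.70%, which covers counting error only), with 91 reads of miR-106b-5p and 1049 of miR-106b-3p over the 6 libraries. miR-106b-3p thus had 11.5 times as many reads, so that the strand named as guide was the minor one in these EV libraries. Which strand the cells retain was not tested. The mature sequence of miR-106b-3p has another seed.

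hsa-miR-106b-3p: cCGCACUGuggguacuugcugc

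The share of miR-106b-5p was 6.28%, 11.8% and 5.15% in 231 EV and 9.85%, 10.3% and 7.37% in 231 ACO1KD EV, low in every library with overlapping groups. Counting both strands, MIR106B had 1140 reads against 17507 of MIR93 and 17200 of MIR25, which are 15.4 and 15.1 times as many. The named guide held between 99.1% and 99.9% of the summed reads of MIR20A, MIR19B1, MIR92A1, MIR93 and MIR25. MIR17 and MIR18A were mixed, with 70.6% (95% Wilson interval 65.5% to 75.1%) and 79.0% (73.3% to 83.7%) of their reads on the named 5p strand. Reads of the second copies of miR-19b-3p and miR-92a-3p are included in these shares. miR-19a-5p was not analysed here, so MIR19A has no such share.

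As a share of all reads, the 9 members were higher in each 231 ACO1KD EV library than in each 231 EV library, and with miR-21-5p set aside the groups overlapped. They took 4.61%, 4.25% and 4.36% of the reads in 231 EV and 5.69%, 5.64% and 5.17% in 231 ACO1KD EV. Of the reads other than miR-21-5p they took 6.44%, 6.18% and 6.25% in 231 EV and 6.48%, 6.39% and 6.34% in 231 ACO1KD EV, with overlapping groups. On the TMM scale the ratio of the group means of 231 ACO1KD EV over 231 EV was 0.975 for the 9 members.

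By cluster, miR-17-92 took 1.48% ± 0.0103 (SD, n = 3) of all reads in 231 EV and 1.75% ± 0.272 (SD, n = 3) in 231 ACO1KD EV, with overlapping groups and a TMM-scaled ratio of 0.927. miR-106b-25 took 2.92% ± 0.184 (SD, n = 3) and 3.75% ± 0.532 (SD, n = 3), with every 231 ACO1KD EV library above 231 EV and a TMM-scaled ratio of 0.999. By seed, the TMM-scaled ratio was 0.989 for AAAGUGC, 0.982 for GUGCAAA, 0.960 for AUUGCAC and 1.19 for miR-18a-5p with AAGGUGC, and all 4 overlapped between groups on that scale.

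In the test of single strands none of the 9 members passed an adjusted p of 0.05 (edgeR quasi-likelihood test with TMM scaling and Benjamini-Hochberg adjustment over 517 miRNAs). None had an unadjusted p under 0.05 in that test either, where 97 of the 517 tested miRNAs did. DESeq2 also called 0 of the 9. Of all tested miRNAs edgeR called 8.51%, made up of 6% lower and 2.51% higher in 231 ACO1KD EV, and DESeq2 called 15.7% of the 255 miRNAs to which it gave an adjusted p. The members' log2 fold changes of 231 ACO1KD EV against 231 EV had a median of 0.00 and ran from -0.24 to 0.38, with 5 above 0 and 4 below, beside a median of -0.03 over all tested miRNAs.

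The intervals limited the changes most narrowly for the abundant strands. The log2 fold change of miR-93-5p was -0.03 (95% interval -0.29 to 0.23; edgeR adjusted p = 0.942) and that of miR-25-3p 0.02 (-0.24 to 0.29; edgeR adjusted p = 0.944). miR-20a-5p was at 0.00 (-0.31 to 0.31) and miR-19b-3p at -0.03 (-0.35 to 0.29), and miR-19a-3p at 0.01 (-0.38 to 0.39). For miR-92a-3p it was -0.24 (-0.52 to 0.05; edgeR adjusted p = 0.384). With edgeR's robust prior its SE was 0.299 in place of 0.145, so this interval is likely too narrow (edgeR adjusted p = 0.79). The low strands were least constrained, with 0.38 (-0.18 to 0.95; edgeR adjusted p = 0.571) for miR-17-5p, 0.26 (-0.34 to 0.87) for miR-18a-5p and -0.24 (-1.06 to 0.57) for miR-106b-5p.

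The scaling set the sign of several members. With library totals in place of TMM all 9 log2 fold changes were above 0, from 0.09 to 0.74 beside the median of 0.32 over all tested miRNAs. The same test then called 1 member, miR-25-3p, at a log2 fold change of 0.38 (edgeR adjusted p = 0.0312). With library totals 13.7% of all tested miRNAs were called, 11.2% higher and 2.51% lower. limma on log2(TPM + 1) also called miR-25-3p alone among the members and 14.5% of the tested miRNAs.

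In TPM, miR-17-5p, miR-20a-5p and miR-25-3p were higher in each 231 ACO1KD EV library than in each 231 EV library, 3 of 9 members where 22.6% of all tested miRNAs were. Permuting the libraries exactly, with log2(TPM + 1) as the value and both tails counted, gave p = 0.1 for each of the 3, the smallest value that 3 libraries against 3 allow. On the TMM scale only miR-17-5p kept its groups apart, at 199.3, 198.2 and 222.3 CPM against 261.7, 320.1 and 238.8 CPM, where 11.6% of all tested miRNAs were higher without overlap.

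miR-92a-3p was the member whose result rested on 1 library. On the TMM scale it had 7244, 7266 and 9533 CPM in 231 EV and 5399, 4949 and 9973 CPM in 231 ACO1KD EV. Without 231 ACO1KD EV replicate 3 its log2 fold change was -0.62 (edgeR adjusted p = 3.36e-06), and it was then the only member called, lower, where 8.51% of all tested miRNAs were called lower. It was -0.097 without 231 EV replicate 3, -0.096 without 231 ACO1KD EV replicate 1 and -0.061 without 231 ACO1KD EV replicate 2, and none of these values passed the threshold. In that replicate miR-92a-3p stood at 1.93 times its level in replicates 1 and 2 (on the TMM scale), while miR-93-5p stood at 0.698 times and miR-19a-3p at 0.701 times. This comparison of replicates was chosen after their values were seen.

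miR-106b-3p, the abundant strand of MIR106B, had 1016, 1015 and 1366 TMM-scaled CPM in 231 EV and 611, 640 and 1171 in 231 ACO1KD EV, where replicates 1 and 2 were below all of 231 EV and replicate 3 was within its range. Its log2 fold change was -0.48 (95% interval -0.89 to -0.07), with an edgeR adjusted p of 0.151, and without 231 ACO1KD EV replicate 3 it was -0.86, below the threshold (edgeR adjusted p = 0.000183). It was -0.29 without 231 ACO1KD EV replicate 1 and -0.13 with library totals, and neither value passed the threshold. Of the 8 opposite strands that were tested none was called, and miR-106b-3p alone had an unadjusted p under 0.05. In the same test 97 of all 517 tested miRNAs had such a p. Over the 6 libraries the log2 TMM-scaled levels of miR-92a-3p and miR-106b-3p, strands of different transcripts and seeds, had a Pearson correlation of 0.96 (Spearman 0.83). It was 0.98 without 231 ACO1KD EV replicate 3. This pair was chosen after the values were seen, and with so few libraries the correlation is a description.

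**Figure D1:**
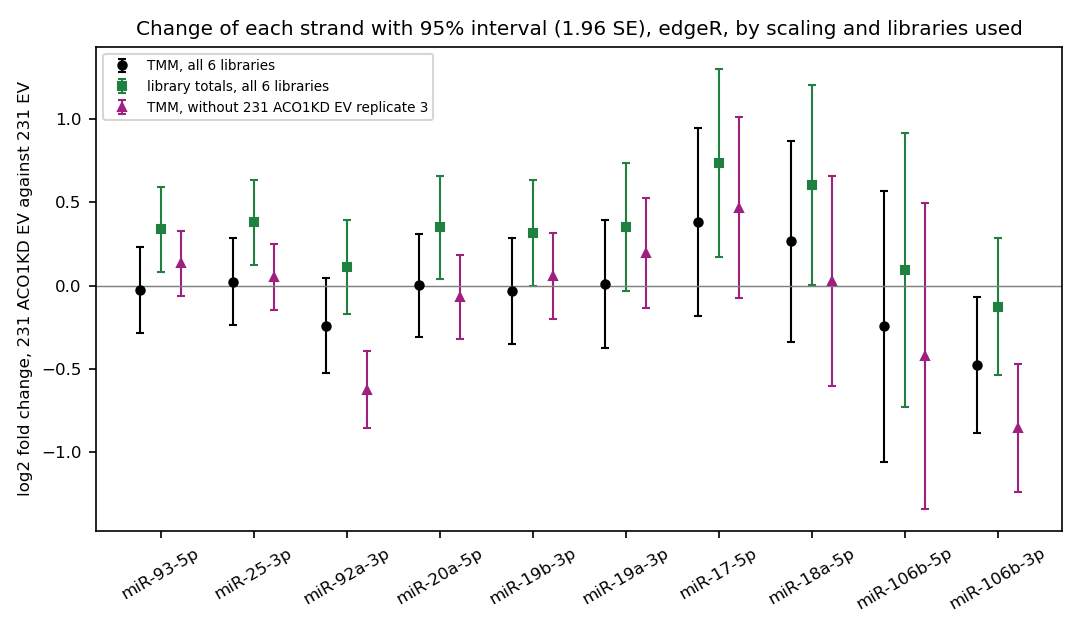
log2 fold change of 231 ACO1KD EV against 231 EV with 95% intervals for the 9 members and miR-106b-3p, with TMM and all libraries (black circles), with library totals (green squares) and with TMM but without 231 ACO1KD EV replicate 3 (purple triangles). The black intervals of the 9 members include 0, the green points of the 9 members lie above 0, and miR-92a-3p and miR-106b-3p drop to -0.62 and -0.86 without that replicate.

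Ratios of 2 members within a library do not depend on the scaling. In all 10 ratios that were set for comparison the groups overlapped, and the exact permutation test gave p of 0.2 or more (0.857 to 0.9 after Benjamini-Hochberg adjustment over the 10), with 0.1 the smallest value possible. The ratio of miR-25-3p to miR-92a-3p, which share a seed across the clusters, was 2.38, 2.09 and 1.68 in 231 EV and 3.17, 3.27 and 1.60 in 231 ACO1KD EV. The 231 ACO1KD EV replicates 1 and 2 were above all of 231 EV and replicate 3 below. The mean log2 ratio differed by 0.33 between the groups, beside SDs of 0.25 in 231 EV and 0.59 in 231 ACO1KD EV, and by 0.67 without 231 ACO1KD EV replicate 3, but by 0.17, 0.15 and 0.19 without 231 ACO1KD EV replicate 1 or 2 or 231 EV replicate 3.

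The ratio of miR-17-5p to miR-92a-3p showed the largest difference of the 10, at 0.0275, 0.0273 and 0.0233 in 231 EV and 0.0485, 0.0647 and 0.0239 in 231 ACO1KD EV. Its mean log2 difference was 0.70, and it was 1.11 without 231 ACO1KD EV replicate 3, which lay within the range of 231 EV, and 0.39 without 231 ACO1KD EV replicate 2. The ratio of miR-25-3p to miR-93-5p, cut from the same intron, was steadier than that of miR-17-5p to miR-92a-3p. It stood at 1.02, 0.970 and 0.885 in 231 EV and 0.933, 0.873 and 1.24 in 231 ACO1KD EV. Its log2 SDs were 0.10 in 231 EV and 0.27 in 231 ACO1KD EV. The ratio of miR-106b-5p to miR-93-5p, also of that intron, had log2 SDs of 0.63 and 0.54. The ratio of miR-93-5p to miR-20a-5p, which share a seed, was 4.35 ± 0.385 (SD, n = 3) and 4.46 ± 1.57 (SD, n = 3).

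The ratio of miR-19a-3p to miR-19b-3p was 0.383, 0.384 and 0.338 in 231 EV and 0.457, 0.326 and 0.321 in 231 ACO1KD EV. Among the 36 pairs of members the log2 TMM-scaled levels of these 2 had the highest Pearson correlation over the 6 libraries, 0.998 (Spearman 1), and the next pair, miR-20a-5p with miR-92a-3p, had 0.498. The 2 strands differ at 1 base, so reads shared between them could contribute, which was not tested. Over all pairs of members the correlation ran from -0.876 to 0.998. The libraries are shared by all pairs and few, so these values are descriptions.

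The other strands with the AUUGCAC seed of miR-25-3p and miR-92a-3p were miR-92b-3p, miR-32-5p and miR-363-3p. miR-92b-3p, which differs from miR-92a-3p at U10C, G21C and U22C, had 481, 541 and 646 TMM-scaled CPM in 231 EV and 231, 234 and 553 in 231 ACO1KD EV, where replicates 1 and 2 were below all of 231 EV and replicate 3 was within its range. Its log2 fold change was -0.68 (95% interval -1.18 to -0.19; edgeR adjusted p = 0.066). miR-32-5p had 74, 76 and 70 reads in 231 EV and 36, 14 and 48 in 231 ACO1KD EV, with a log2 fold change of -0.76 (-1.30 to -0.22; edgeR adjusted p = 0.0608). Neither passed the threshold. On the TMM scale miR-32-5p was lower in each 231 ACO1KD EV library than in each 231 EV library, as were 66 of the 517 tested miRNAs. Without 231 ACO1KD EV replicate 3 miR-92b-3p and miR-32-5p were called lower, at -1.25 and -1.02 (edgeR adjusted p = 1.68e-05 and 0.00286). So they were with TMM factors made without the 10 highest miRNAs (edgeR adjusted p = 0.0347 and 0.0334). Of all 517 tested miRNAs 44 and 39 were called lower in these settings. The log2 fold change of miR-92b-3p was -0.43 without 231 ACO1KD EV replicate 1 and -0.34 with library totals, and that of miR-32-5p was -0.42 with library totals. In the main test with TMM 4 of the 6 seed mates outside the clusters were tested and none was called. These 2 had an unadjusted p under 0.05, as did 97 of all 517 tested miRNAs. Over the 6 libraries miR-92b-3p correlated with miR-92a-3p at 0.93 (Spearman 0.89), a description from few libraries.

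The study named CAUUG as the letters of miR-33a-5p that ACO1 contacts, and its probes tested the longer CAUUGC. The sequences were searched for both, on the mature strand only since it is single-stranded RNA. miR-33a-5p holds CAUUG at bases 4 to 8, within its seed, and again at bases 15 to 19, and only the second copy is followed by C to give CAUUGC at bases 15 to 20. In the study's pulldown, a miR-33a-5p probe changed at the first copy still bound ACO1. A probe changed at the second copy did not, although it kept CAUUG at bases 4 to 8.

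hsa-miR-33a-5p: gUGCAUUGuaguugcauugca

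Among the 9 members CAUUG was found in miR-25-3p alone, at bases 1 to 5, and there it is part of CAUUGC at bases 1 to 6. Its relative miR-92a-3p, from which it differs at U1C, lacks them. CAUUG occurred in 41 of 2370 human mature sequences of RefSeq (1.73%), and CAUUGC in 12 (0.506%). miR-33a-5p had 50, 58 and 30 reads in 231 EV and 18, 6 and 24 in 231 ACO1KD EV, with a log2 fold change of -1.10 (edgeR adjusted p = 0.0116), while miR-25-3p, at 0.02, had an interval of -0.24 to 0.29. The call of miR-33a-5p was lost with library totals (edgeR adjusted p = 0.092) and without any 1 of 231 EV replicates 1 and 2 and 231 ACO1KD EV replicates 1 and 2 (edgeR adjusted p of 0.0544, 0.15, 0.0727 and 0.0582), and DESeq2 gave an adjusted p of 0.0501.

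Of the tested miRNAs 435 of 517 were matched to a sequence, and 18 of these held CAUUG. 6 of the 18 were called lower and 0 higher in 231 ACO1KD EV, beside 18 lower and 6 higher of the 417 without it, and their median log2 fold changes were -0.50 and -0.06. The 18 include miR-33a-5p itself, from which the letters were taken, and without it 5 of 17 were called lower. Of the 7 that hold CAUUGC, 3 were called lower and 0 higher (miR-23a-3p, miR-181b-5p and miR-33a-5p), with a median of -0.51, and with library totals 0 were lower and 1 higher. Of the 11 with another base after CAUUG, 3 were called lower and 0 higher. The search for CAUUGC and the count without miR-33a-5p were added after the data were seen. These counts depended on the scaling and on single libraries. With library totals 1 of the 18 was called lower and 3 higher. The number called lower was 2 without 231 EV replicate 1, 3 without 231 EV replicate 3 or 231 ACO1KD EV replicate 1 or 2, and 7 without 231 ACO1KD EV replicate 3. In the last setting 2 were called higher. DESeq2 called 5 of the 18 lower and 2 higher. Among miRNAs with a mean count of at least 10, 6 of 12 were lower and 2 higher. Of all 517 tested miRNAs 14 were called lower without 231 EV replicate 1 or 3, and 44 without 231 ACO1KD EV replicate 3. The difference between the medians of those with and without the letters was -0.44 with TMM and -0.43 with library totals, and -0.22 without 231 EV replicate 2. Several of the 18 are near-identical in sequence and are not independent. miR-25-3p stood at percentile 53.6 of the log2 fold changes of all tested miRNAs.

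Outside the clusters, the 5 miRNAs whose TMM-scaled levels followed the mean profile of the 9 members most closely, among the candidates of mean count 50 or more, were miR-424-5p (Pearson r = 0.94 over 6 libraries), miR-15a-5p (0.92), miR-30e-5p (0.91), miR-98-5p (0.86) and miR-29c-3p (0.85). That mean profile moved only from -0.10 to 0.06 on the log2 scale around its centre.

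Reads of miRNAs listed as markers of blood, liver and epithelial cells were also present, and their source was not tested. The 4 listed leukocyte and platelet miRNAs, miR-223-3p, miR-142-3p, miR-142-5p and miR-150-5p, summed to 8200 to 9660 TPM in 231 EV and to 13431 to 15171 TPM in 231 ACO1KD EV, without overlap. In TPM 22.6% of all tested miRNAs were higher without overlap. miR-223-3p and miR-150-5p were called higher also with TMM, at log2 fold changes of 0.51 and 0.72 (edgeR adjusted p = 0.0226 and 0.0215). These 2 calls were lost without any 1 of the 231 EV libraries, that of miR-223-3p also without 231 ACO1KD EV replicate 1. With TMM miR-142-3p, at 0.10, and miR-142-5p, at 0.38, were not called (edgeR adjusted p = 0.799 and 0.166). miRNAs of miR-17-92 and miR-106b-25 are abundant in blood cells as well, and whether any RNA of such cells entered the levels above was not tested. The 4 red cell miRNAs summed to 2503 to 2676 TPM and 1597 to 2123 TPM, the liver miRNA miR-122-5p stood at 1094 to 1324 TPM and 985 to 1887 TPM, and the 6 epithelial miRNAs summed to 858 to 985 TPM and 619 to 992 TPM. None of the listed defining markers was at 0 in all libraries. The 5 miRNAs known to be high in MDA-MB-231 summed to 336282 to 364665 TPM in 231 EV and to 150163 to 233369 TPM in 231 ACO1KD EV. Most of these sums was miR-21-5p, with means of 299864 TPM in 231 EV and 141141 TPM in 231 ACO1KD EV. Small RNA from the pelleted EVs was read in bulk, so that fewer EVs of a kind and less of a miRNA per EV cannot be told apart.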

How the data were processed

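Small RNA libraries were prepared with the NEBNext Multiplex Small RNA kit and sequenced as single-end reads. By their methods the authors trimmed reads and selected them by size, discarded matches to Rfam classes other than miRNA and assigned the remainder to miRBase entries, and the submitters' processing notes name Bowtie2, StringTie and hg38. The authors deposited raw counts per miRNA and TPM values made from them, and how reads that match several miRNAs were counted is not given in the sources used here. Counts were compared with edgeR 4.0.16 (R 4.3.3; quasi-likelihood test, TMM, no covariate, Benjamini-Hochberg adjustment) over the 517 miRNAs that had reads in 3 or more of the 6 libraries. All miRNAs shared 1 quasi-dispersion, so a miRNA that varies more than others gets too small a p. The biological coefficient of variation estimated in common for all miRNAs, a separate quantity, was 20.8%. Intervals on log2 fold changes are 95% normal intervals, with the SE obtained as the fold change over the root of F. Groups are the titles and genotypes of the labels.

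Alternatives were library totals, DESeq2's size factors, TMM without the 10 highest miRNAs, other filters, a robust prior, DESeq2 1.42.0, limma 3.58.1 on log2(TPM + 1), log2(TPM + 0.1) and log2(TPM + 10), a replicate block and each library left out. The test scripts were tested on simulated data. In a first simulation limma on TPM made more false calls than the other tools, and the changed miRNAs were then drawn outside the 10 highest. Within-library ratios were compared by two-sided exact permutation tests. A count of 3, the limit that a count of 0 allows, is 13.0 to 13.3 TPM in 231 EV and 17.1, 44.2 and 19.1 TPM in 231 ACO1KD EV replicates 1, 2 and 3. Reads carry no molecular identifiers, so intervals on shares cover counting error only. Named miRNAs are the 9 guides, the other strands of their hairpins, the paralogous miR-106a-363 cluster, miRNAs of shared seed, the 5 most alike in profile, holders of CAUUG and marker lists. The members and lists were chosen with earlier results of these data known.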

Additional observations from a re-analysis of the deposited data

How the results depend on the processing

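Of the members, 1 was called with library totals, 1 with limma at a pseudocount of 1, 1 with limma at a pseudocount of 10 (miR-25-3p, higher, in each) and 1 without 231 ACO1KD EV replicate 3 (miR-92a-3p, lower), so that leaving out a library gave 0 to 1. Of all miRNAs 71, 75 and 76 were called with library totals and limma at pseudocounts of 1 and 10, against 44 in the main test, and 19 to 70 with a library left out. The lowest of these were 20 and 19, without 231 EV replicates 1 and 3, and the highest was 70, without 231 ACO1KD EV replicate 3. The cause was not tested. With library totals the log2 fold changes of miR-19b-3p, miR-92a-3p, miR-106b-5p and miR-93-5p became 0.32, 0.11, 0.092 and 0.34, and with limma 0.31, 0.052, 0.14 to 0.17 (0.16 at a pseudocount of 1) and 0.31. These settings do not correct for the lower share of miR-21-5p. DESeq2's size factors, a mean count of at least 10 and DESeq2 gave 0.0048, 0.0085 and 0.0063 for miR-19b-3p and 0.025, 0.022 and 0.025 for miR-93-5p. TMM without the 10 highest miRNAs gave -0.059 for miR-19a-3p, -0.064 for miR-20a-5p and -0.039 for miR-25-3p. The replicate block called 0 members and 44 miRNAs (miR-92b-3p, no member, was among them at -0.77, edgeR adjusted p = 0.0282). It turned miR-19a-3p to -0.041 and miR-20a-5p to -0.013. Deviations of same-numbered libraries from their group means correlated at -0.14, 0.04 and 0.23 for replicates 1, 2 and 3. Whether the numbers pair the libraries cannot be told from so few values.

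With a library left out, log2 fold changes ran from -0.40 to 0.20 for miR-19a-3p, -0.079 to 0.15 for miR-20a-5p, -0.20 to 0.058 for miR-19b-3p, -0.62 to -0.061 for miR-92a-3p, -0.44 to 0.14 for miR-106b-5p, -0.11 to 0.13 for miR-93-5p and -0.018 to 0.063 for miR-25-3p. Log2 differences of ratios ran from -0.43 to 0.033 for miR-18a-5p to miR-17-5p, -0.18 to 0.071 for miR-19a-3p to miR-19b-3p, -0.021 to 0.65 for miR-19b-3p to miR-92a-3p, 0.15 to 0.67 for miR-25-3p to miR-92a-3p, 0.39 to 1.11 for miR-17-5p to miR-92a-3p, -0.46 to 0.22 for miR-106b-5p to miR-93-5p, -0.083 to 0.17 for miR-25-3p to miR-93-5p and -0.28 to 0.23 for miR-93-5p to miR-20a-5p. Without miR-21-5p in the denominator miR-17-92 held 2.12% and 2.05% of the counts in 231 EV and 231 ACO1KD EV, and miR-106b-25 held 4.17% and 4.35%. miR-17-5p and miR-18a-5p stayed above 0 in all 17 alternatives and were called in none. Depth limited miR-106b-5p most, since it rested on as few as 6 reads in the shallowest library.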
